A study of Mus musculus with 8 samples.

Results

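The genes described here are 10 mouse genes of the liver's extracellular matrix and of its collagen-producing cells, namely the fibrillar collagen genes Col1a1, Col1a2 and Col3a1, the basement membrane collagen genes Col4a1 and Col4a2, the proteoglycan genes Dcn and Lum, the filament genes Des and Acta2, and the protease inhibitor gene Timp1. They were chosen by name, and their symbols were matched to the Ensembl identifiers of both deposited tables. Of the 10, 9 were found in both tables, out of 24375 genes with a row in either. Timp1 matched no row, so no expression value is given for it. The rule uses names and no measured value, although results of these data were already known when the list was made.

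The 8 libraries came from livers of Cpeb4 knockout and wild-type mice. They form 4 groups of 2 libraries, which are knockout total liver, wild-type total liver, knockout purified endoplasmic reticulum (ER) and wild-type purified ER. The ER was isolated from whole livers after an overnight fast, and for the total liver RNA the labels name no feeding state. The age and strain of the mice and the making of the Cpeb4 allele are not given either, nor whether separate mice gave the libraries of a group, so a p-value measures the spread between libraries, which may be technical. The authors deposited 2 tables of a genotype comparison, with 1 mean and 1 fold change per gene, which name neither the RNA preparation nor the libraries. The larger table has 23634 genes and the smaller 21201, and neither is assigned to total liver or ER.

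Hepatic stellate cells lie between hepatocytes and the sinusoidal endothelium, store vitamin A, and are the main source of fibrillar collagen in an injured liver. When they are activated they lose their vitamin A, gain alpha smooth muscle actin (the product of Acta2) and secrete type I and type III collagen, which decorin and lumican (the products of Dcn and Lum) bind and space. Type IV collagen forms the network of basement membranes, and TIMP1 inhibits the metalloproteinases that break matrix down. Cpeb4 encodes a protein that binds cytoplasmic polyadenylation elements, short U-rich motifs in the 3′ untranslated regions of mRNAs, and acts through them on the poly(A) tail and on translation.

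Because the product of Cpeb4 binds such elements, the 3′ untranslated regions of the 10 genes were searched for TTTTAT and TTTTAAT. The motifs are written as DNA and were sought on the RNA strand only, in 1 principal isoform a gene of GENCODE M21 (build GRCm38). These 2 motifs cannot start at the same base. Col3a1 held 4 elements, Col1a1 3, Lum 3, Col4a1 1 and Acta2 1, while Col1a2, Col4a2, Dcn, Des and Timp1 held none. The last poly(A) signal (AATAAA or ATTAAA) was sought in the last 50 bases of each region, and all 10 genes had such a signal. An element lay within 100 bases of it in Col1a1, Col4a1 and Acta2. For each of the 5 genes, the element nearest that signal is shown 5′ to 3′ in a 30-base window of the RNA strand, with the element in capitals. The windows lie at chr11:94952985-94953014 (plus strand, Col1a1), chr1:45349537-45349566 (plus strand, Col3a1), chr8:11198495-11198524 (minus strand, Col4a1), chr10:97572361-97572390 (plus strand, Lum) and chr19:34241145-34241174 (minus strand, Acta2).
Col1a1: atttgagatgtTTTTAATtattttgattgc
Col3a1: gatcttctcttcTTTTATtctataaaaata
Col4a1: taaaaatgaagcTTTTATggatttgttgct
Lum: atcagccaagttTTTTATggttcccagatt
Acta2: caagtaatatggTTTTATtaaaatcacatc
Elements of this spelling are common in liver transcripts. They occurred within 100 bases of the last poly(A) signal in 17.5% and 17.6% of the searched regions, where regions without a signal counted as having none. Anywhere in the region they occurred in 60.3% of the 11724 searched regions of genes tested in the larger table and in 59.9% of the 10384 of the smaller. The median region there was 1014 and 999 bases long. With 5 of 10 genes holding an element, the members are near that share. Their regions ran from 101 bases (Timp1) to 1529 bases (Des). Lum had 4.60 elements per kilobase, Col3a1 4.17, Col1a1 2.11 and Acta2 1.73, while Col4a1 at 0.726 and the 5 genes with none lay under the 1.34 and 1.35 over the searched regions of the larger and smaller table. A match in the letters shows neither binding nor regulation, and the genotype values of the genes with and without a match are given by role further on.

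The deposited means still hold the reads behind them. Each mean is a sum of 4 whole read counts, each times the fixed value that 1 read of its library adds, and it is printed to 15 digits. For 99.9% of genes with a mean between 1 and 2500, a single combination of whole reads gave the printed mean, and this held for all 9 genes found. Reads divided by the library's size factor are called normalised reads below. The sign of the authors' fold change in genes with a single read puts 2 libraries of each table on each side of the comparison, and the side with lower Cpeb4 was read as the knockout. The 4 libraries cannot be tied to named samples or paired across tables, so libraries 1 and 2 of a genotype are only the deeper and the shallower in that table. Size factors were 1.24 and 0.904 for the knockout and 1.26 and 0.717 for the wild-type libraries of the larger table, and 1.64 and 0.839 for the knockout and 0.870 and 0.839 for the wild-type libraries of the smaller. On the scale of these means, the larger table summed to 37351703 and the smaller to 36848665 over all genes.

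Cpeb4 (ENSMUSG00000020300) had 506 and 579.9 normalised reads in the knockout libraries of the larger table, against 1511 and 1657 in the wild-type ones. It had 193 and 225 normalised reads in the knockout libraries of the smaller table, against 689 and 634 in the wild-type ones. All 4 knockout libraries lay well under all 4 wild-type libraries of their own table, at 0.343 and 0.316 of the wild-type mean. The fall of Cpeb4 passed the authors' test in both of the authors' deposited tables (log2 fold change -1.16 ± 0.11 (SE) with adjusted p = 3.18e-24, and -1.10 ± 0.13 with adjusted p = 2.3e-12). Since the direction of every comparison here is read from Cpeb4, its values do not check the labels independently.

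None of the stellate cell and matrix genes changed past the threshold with loss of Cpeb4. The authors' deposited larger table gave an adjusted p to all 9 genes and called 0 of them at an adjusted p of 0.05, where it called 0.296% of all 14180 tested genes. The authors' deposited smaller table gave one to 7 of the 9 and also called 0, where it called 0.266% of 11661. No member had an unadjusted p under 0.05 in either deposited table, against 3.62% (larger) and 4.11% (smaller) of all tested genes. With so few genes called in all, a count of 0 among 9 is what the background share would give and says nothing particular about these genes. In limma fits to the recovered reads, an alternative added after the data were seen, 0 members were called in either table, against 0.0166% of 12026 genes (Cpeb4 and BC018473) and 0.0103% of 9745 genes (Cpeb4 alone). There 1 member of the larger table (Dcn) and 0 of the smaller had an unadjusted p under 0.05, against 834 of the 12026 and 673 of the 9745 genes. These counts single out no member.

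The fold changes themselves were small. Log2 fold changes in the authors' deposited larger table ran from -0.17 (Dcn) to 0.03 (Acta2) with a median of -0.07, and 8 of 9 were below 0. In the authors' deposited smaller table the 7 tested genes ran from -0.15 (Dcn) to 0.07 (Col1a2) with a median of -0.077, and 5 of 7 were below 0. Over all tested genes the medians of the deposited tables were -0.0008 and 0.0008, the middle 50% of genes lay between -0.06 and 0.05 and between -0.07 and 0.07, and 50.4% and 49.7% were below 0. These fold changes are moderated estimates, which shrinks them towards 0, and more so for genes with few reads. At the members' own standard errors, a log2 fold change of 0.36 (Dcn) to 0.47 (Col1a2) was needed to pass in the larger table, and 0.43 (Col4a1) to 0.54 (Des) in the smaller. Every 95% interval included 0, and for every tested member both ends of it lay between -0.38 and 0.32. The standard errors belong to the moderated estimates and do not grow as reads become fewer. In the smaller table that of Acta2 (54 reads) was 0.08 and that of Des (468 reads) 0.14. Intervals and sizes needed therefore do not bound the unmoderated changes. In limma fits to the recovered reads of that table, estimates ran from -0.36 ± 0.34 (Col4a1) to 0.23 ± 0.26 (Col1a2).

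**Figure D1:**
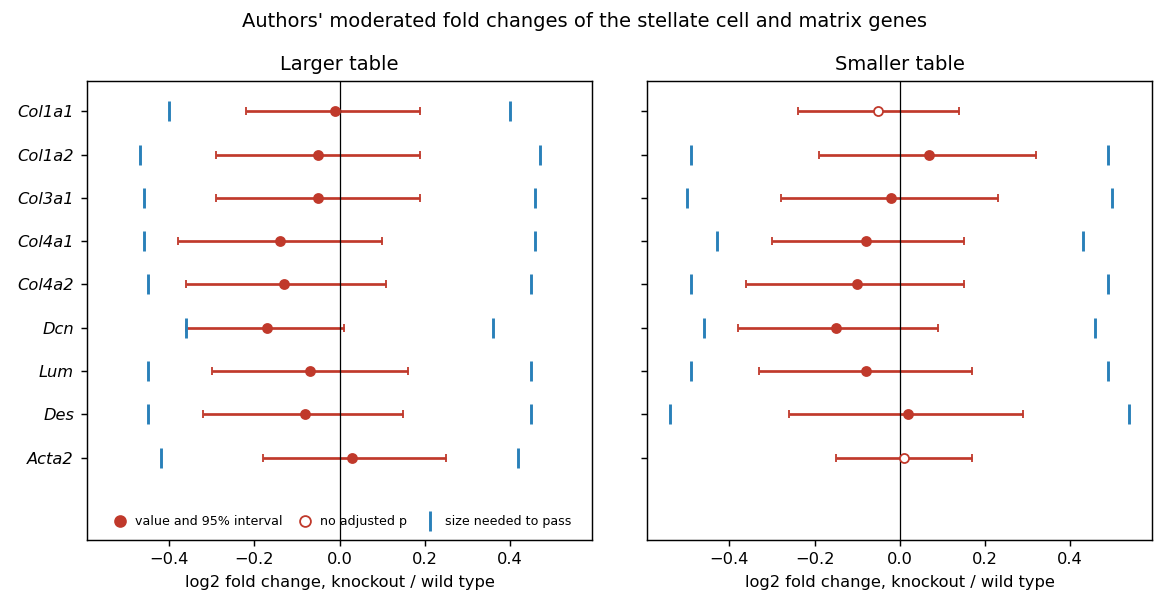
Authors' moderated log2 fold change of each gene, knockout over wild type, with its 95% interval, in the larger (left) and smaller (right) table. Open points have no adjusted p, and blue ticks mark the size needed to pass at that gene's standard error; every interval crosses 0 and no point reaches a tick.

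The fibrillar collagen genes Col1a1 and Col1a2 encode the chains of type I collagen, the main collagen of scar tissue. Col1a1 (ENSMUSG00000001506; GRCm38 chromosome 11, 94936224 to 94953042, plus strand) had 44.5 and 57.5 normalised reads in the knockout libraries of the larger table, against 42.1 and 64.1 in the wild-type libraries. Both knockout values lay between the wild-type values. The authors' deposited larger table put its log2 fold change at -0.01 ± 0.10 (SE, p = 0.917, adjusted p = 1.0). The reads of Col1a1 in the smaller table were few, at 22 and 16 in the knockout libraries and 20 and 16 in the wild-type libraries before scaling. After scaling they were 13.4 and 19.1 in the knockout, against 23.0 and 19.1 in the wild type, so the nearest libraries of the genotypes were level. The authors' deposited smaller table gave Col1a1 a log2 fold change of -0.05 ± 0.10 and no adjusted p.

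Col1a2 (ENSMUSG00000029661; chromosome 6, 4504814 to 4541544, plus strand) had 149.7 and 147 normalised reads in the knockout libraries of the larger table, against 143 and 178 in the wild-type libraries. It had 52.9 and 65.6 in the knockout libraries of the smaller table, against 55.2 and 45.3 in the wild-type libraries. The genotypes overlapped in both tables, with the highest library being wild-type in the larger and knockout in the smaller. The authors' deposited tables gave log2 fold changes of -0.05 ± 0.12 (p = 0.684, larger) and 0.07 ± 0.13 (p = 0.61, smaller). Col1a2 and Col1a1, whose products assemble into the same fibre, thus had estimates of opposite sign in the smaller table, with neither distinguishable from 0.

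Col3a1 (ENSMUSG00000026043; chromosome 1, 45311538 to 45349706, plus strand) encodes type III collagen, which co-assembles with type I. Its normalised reads were 111 and 142 in the knockout libraries of the larger table, against 139.9 and 131 in the wild-type libraries. They were 49.2 and 62.0 in the knockout libraries of the smaller table, against 65.5 and 51.3 in the wild-type libraries. Knockout and wild type overlapped both times, and the deeper knockout library had the lowest value each time. The log2 fold changes were -0.05 ± 0.12 (p = 0.695) and -0.02 ± 0.13 (p = 0.854) in the authors' deposited larger and smaller tables. A short stretch of its exons, 1.44% of the bases, is shared with the same-strand gene Gm47302.

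The basement membrane collagen genes Col4a1 and Col4a2 encode the chains of the common type IV collagen molecule and stand head to head on chromosome 8. In the annotation Col4a1 (ENSMUSG00000031502; 11198423 to 11312826, minus strand) and Col4a2 (ENSMUSG00000031503; 11312805 to 11449287, plus strand) start 21 bases apart, so that the 2 annotations overlap. Col4a1 had 210.4 and 224 normalised reads in the knockout libraries of the larger table, against 269 and 244 in the wild-type libraries. Col4a2 had 272 and 273 normalised reads in the knockout libraries of that table, against 324 and 302 in the wild-type libraries. For both genes each knockout library was below each wild-type library, at 0.846 (Col4a1) and 0.871 (Col4a2) of the wild-type mean. The deposited log2 fold changes did not pass, at -0.14 ± 0.12 (p = 0.245) for Col4a1 and -0.13 ± 0.12 (p = 0.293) for Col4a2 in the authors' deposited larger table.

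Type IV collagen reads were sparser in the smaller table. Col4a1 had 31.0 and 26.2 normalised reads in its knockout libraries, against 29.9 and 45.3 in its wild-type libraries, and the genotypes overlapped. Col4a2 had 52.3 and 46.5 in the knockout libraries, against 54.0 and 72.7 in the wild-type libraries. The Col4a2 groups did not overlap, although the nearest pair of libraries was close. The authors' deposited smaller table gave -0.08 ± 0.11 (p = 0.497) for Col4a1 and -0.10 ± 0.13 (p = 0.422) for Col4a2. The deposited estimates of the 2 genes differed by less than 1 standard error in each table. Of the pair, only the 3′ untranslated region of Col4a1 held a polyadenylation element, and whether it bears on these estimates was not tested.

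Dcn (ENSMUSG00000019929; chromosome 10, 97479609 to 97518143, plus strand) encodes decorin, a small leucine-rich proteoglycan that coats collagen fibrils and binds TGF-beta. It was the best measured of the 9 genes, with 7981 reads over the 4 libraries of the larger table and 4648 over those of the smaller. Its normalised reads were 1873 and 1737 in the knockout libraries of the larger table, against 2037 and 2138 in the wild-type libraries. In the smaller table they were 1076 and 1006 in the knockout libraries, against 1224 and 1157 in the wild-type libraries. The genotypes did not overlap in either table, and the knockout means were 0.865 and 0.875 of the wild-type means. The gaps between libraries of 1 genotype were 0.07 to 0.11 on the log2 scale, and the gaps between genotypes -0.21 and -0.19.

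Even so, the difference in Dcn passed neither the authors' test nor limma after adjustment, in either table. The authors' deposited larger table gave -0.17 ± 0.09 (95% interval -0.36 to 0.01, p = 0.0708, adjusted p = 1.0), and the authors' deposited smaller table gave -0.15 ± 0.12 (-0.38 to 0.09, p = 0.218, adjusted p = 0.999). By its p, Dcn ranked 664 among 14180 genes and 1862 among 11661. In limma fits to the recovered reads, its log2 ratio was -0.21 ± 0.08 (larger table, adjusted p = 0.702) and -0.19 ± 0.10 (smaller table, adjusted p = 0.75). Leaving out any 1 library kept the limma estimate between -0.26 and -0.16 in the larger and between -0.24 and -0.14 in the smaller table. Neither table can be taken as a repeat of the other, since the sources do not say whether any mouse served for both. The searched 3′ untranslated region of Dcn, 488 bases long, held no polyadenylation element.

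Lum (ENSMUSG00000036446; chromosome 10, 97565128 to 97572703, plus strand) encodes lumican, a proteoglycan of the same family, and is the next protein-coding gene after Dcn, 46984 bases on. It had 75.2 and 95.2 normalised reads in the knockout libraries of the larger table, against 102 and 92.0 in the wild-type libraries. In the smaller table it had 38.9 and 70.3 in the knockout libraries, against 56.3 and 75.1 in the wild-type libraries. The genotypes overlapped in both, and the deeper knockout library held the lowest value of each table. The spread of Lum between knockout libraries was wide, at 0.33 and 0.84 on the log2 scale in the larger and smaller table. The log2 fold changes were -0.07 ± 0.12 (p = 0.55) and -0.08 ± 0.13 (p = 0.53) in the authors' deposited larger and smaller tables.

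Des (ENSMUSG00000026208; chromosome 1, 75360329 to 75368579, plus strand) encodes desmin, the intermediate filament that marks rodent stellate cells and muscle. Normalised reads of Des were 85.8 and 90.7 in the knockout libraries of the larger table, against 113 and 92.0 in the wild-type libraries. The groups did not overlap there, by a narrow margin between the nearest libraries. The smaller table had 109 and 118 in the knockout libraries, against 103 and 118 in the wild-type libraries, with overlap. The log2 fold changes were -0.08 ± 0.12 (p = 0.476) and 0.02 ± 0.14 (p = 0.912) in the authors' deposited larger and smaller tables. Exons of the opposite-strand gene Gm15179 cover 5.86% of the exonic bases of Des. No source used here says whether the counting used the strand, or whether it used exons or whole gene spans. Few genes nested in another gene had a row, as given with Timp1 further on. How many of the reads of Des the overlap touches is therefore not known.

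Acta2 (ENSMUSG00000035783; chromosome 19, 34241090 to 34255590, minus strand), the usual marker of activated stellate cells and also a gene of vascular smooth muscle, did not move with genotype past the threshold. It had 81.7 and 55.3 normalised reads in the knockout libraries of the larger table, against 60.4 and 66.9 in the wild-type libraries. In the smaller table it had 14.0 and 11.9 in the knockout libraries, against 9.2 and 15.5 in the wild-type libraries. The wild-type values lay between the knockout values in the larger table, and the knockout values lay between the wild-type values in the smaller. The authors' deposited tables gave log2 fold changes of 0.03 ± 0.11 (p = 0.759, larger) and 0.01 ± 0.08 (smaller, where it had 54 reads in all and no adjusted p).

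**Figure D2:**
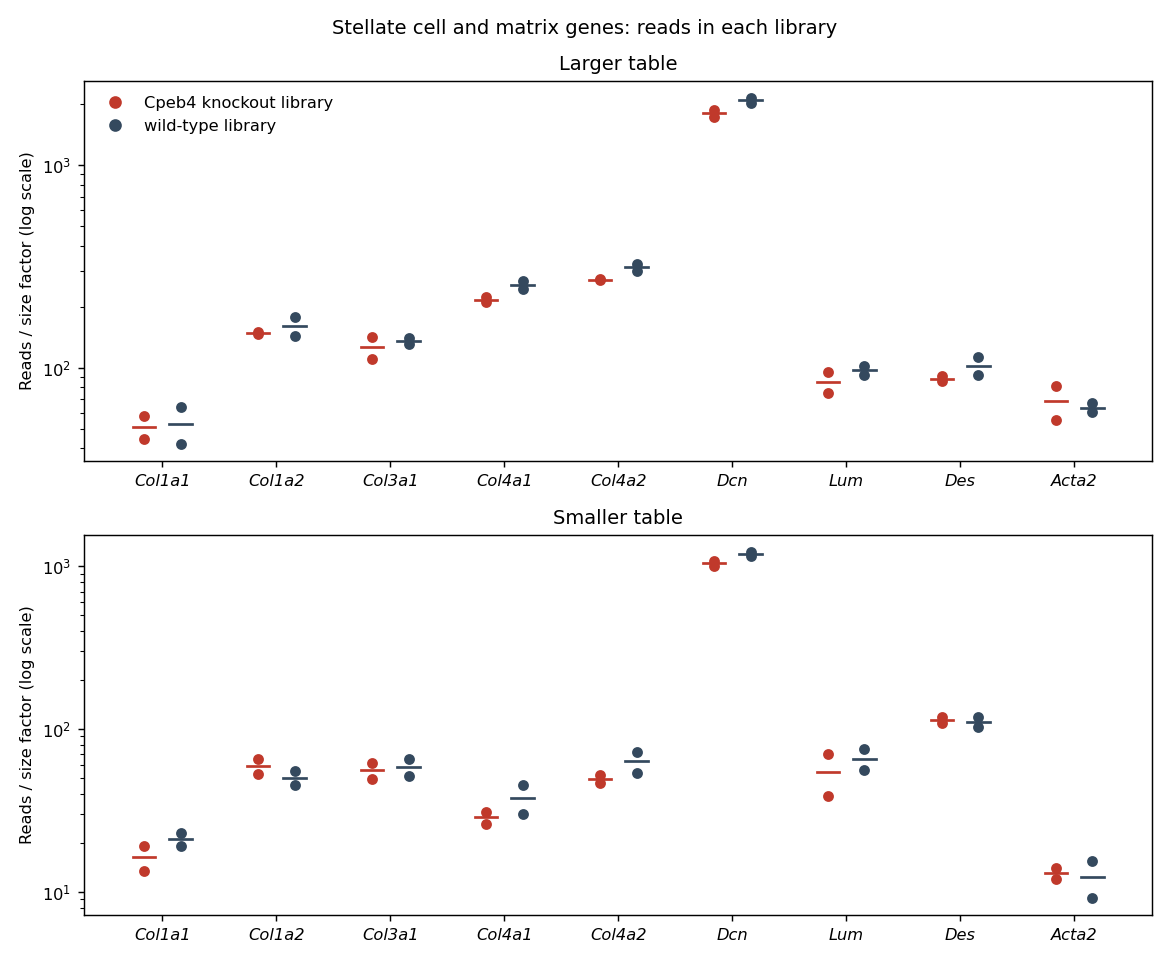
Normalised reads (log axis) of the 9 genes in each library of the larger (top) and smaller (bottom) table, knockout in red on the left of each pair and wild type in blue on the right; lines are the means of 2 libraries. Dcn stands far above the other genes, and its knockout and wild-type libraries are apart in both tables, while those of most other genes overlap.

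Across the set, both knockout libraries were below both wild-type libraries in 4 of the 9 tested genes of the larger table (Col4a1, Col4a2, Dcn and Des), and above them in 0. Of all 12026 tested genes with recovered reads, 19.7% were below and 17.6% above by the same rule. The smaller table had 2 of 7 tested genes below (Dcn and Col4a2) and 0 above, where 20.6% and 18.6% of 9745 genes were below and above. Dcn and Col4a2 were thus below in both tables, which is 2 of the 7 members tested in both and 0 above in both. Of 9182 genes tested in both, 9.55% were below and 7.77% above in both tables. With 2 libraries against 2, these separations are common among all genes, and they do not amount to calls. The members' median log2 ratio of recovered reads was -0.191 in the larger and -0.193 in the smaller table, and it turned to 0.093 in the smaller table without the deeper knockout library. In bulk RNA, fewer stellate cells and less of a transcript per stellate cell cannot be told apart.

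Some of these genes, picked here after their values were seen, differed between the knockout libraries in the same direction in both tables. Between 2 libraries nearly every gene is higher in one or the other, and no share over all genes was computed, so joint variation is not shown. In each table the deeper knockout library had lower Lum, Col1a1 and Col3a1 and higher Acta2 than the other knockout library. The gaps were 0.33, 0.36, 0.35 and 0.55 on the log2 scale in the larger table and 0.84, 0.48, 0.33 and 0.21 in the smaller. Des was also lower there in both tables and Dcn higher, while Col1a2, Col4a1 and Col4a2 changed direction between the tables. Summed normalised reads of 11 portal fibroblast and mesothelial markers (cells that also make matrix) were likewise lower in the deeper knockout library, at 548 and 878 in the knockout libraries of the larger table, against 983 and 860 in the wild-type libraries. The sums were 268 and 478 in the knockout libraries of the smaller table, against 428 and 489 in the wild-type libraries. Gas6 (mean 687 and 343 in the authors' deposited larger and smaller tables) made up most of the sum, while Pi16, Gli1 and Cd34 had means under 5 counts in both. Summed normalised reads of 16 stellate markers were higher in the deeper knockout library, at 6429 against 5888 in the larger table and 5077 against 4059 in the smaller. The part of portal fibroblasts and mesothelial cells in the collagen and lumican values was not tested.

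A difference in response between the tables was not detected. The smaller minus larger log2 fold change was called in 0 of the 7 members tested in both, against 0.0172% of 11604 genes (z test, Benjamini-Hochberg adjustment). No member had an unadjusted p under 0.05 in this z test, against 16 of the 11604 genes. The smallest was 0.516 for Col1a2 (difference 0.12 ± 0.18, 95% interval -0.23 to 0.46, adjusted p = 1.0). For Dcn the difference was 0.02 ± 0.15 (-0.28 to 0.32), for Col4a1 0.06 ± 0.17 (-0.26 to 0.39) and for Des 0.10 ± 0.18 (-0.26 to 0.46). These intervals come from the deposited standard errors, and the z values of all 11604 genes had an SD of 0.535, so the intervals are wide for the spread seen between the tables.

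By level, decorin mRNA dominated the set. On the scale of mean count per kilobase of exon, per 1000000 of the table's summed means, Dcn stood at 5.19 in the smaller and 8.93 in the larger table, with single libraries from 4.68 to 5.69 and from 7.97 to 9.80. Des was second in the smaller table at 0.811 and overlapped Lum at 0.667. Col4a2 at 0.231 was apart there from Lum above it and Col3a1 below it. Its lowest library (0.191) was nonetheless just under the highest of Acta2 (0.192). Col3a1 (0.158), Acta2 (0.156), Col4a1 (0.12) and Col1a2 (0.12) ran into each other, and Col1a1 was last at 0.077. Col4a2 came second in the larger table at 1.18, followed by Lum at 0.996, Col4a1 at 0.849, Acta2 at 0.806, Des at 0.68, Col3a1 at 0.357, Col1a2 at 0.333 and Col1a1 at 0.212. Neighbours from Col4a2 down to Des had overlapping library ranges in that table, as had Col3a1 and Col1a2, whereas Dcn, the step from Des to Col3a1 and the step from Col1a2 to Col1a1 were clear of overlap. Levels per length use the union of annotated exons, which is long for Col1a2 (12426 bases), so its place in the order depends on which exons the liver uses. They also assume that only exons were counted, which no source used here states.

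Between the tables the members' levels shifted unequally relative to other genes. The tables were normalised separately, so the log2 ratio of mean levels, smaller over larger, was centred on the median ratio of the 11604 genes tested in both, and no test was made. The type IV collagen gene Col4a1 had the lowest ratio, at -2.58, which 1.84% of all those genes undercut. Acta2 at -2.13 (2.86% of genes lower, from only 54 reads in the smaller table) and Col4a2 at -2.12 (2.88% lower) came next. Acta2 and Col1a1 (means 12.7 and 18.6 in the smaller table) are not among the 11604 genes. That table tested no gene with a mean under 31.9, and Col4a1, at 33.1, lies just above this floor. The floor leaves out genes with few reads there, so the shares given for members with low means may be too small. Fibrillar collagens followed, with -1.24 for Col1a2, -1.23 for Col1a1 and -0.94 for Col3a1, within the middle 90% of genes (-1.57 to 1.10). The proteoglycan genes were nearer to other genes, at -0.55 for Dcn and -0.34 for Lum. Des alone had a positive ratio, 0.49, above 75.9% of genes. Scaling by summed means in place of the median gave lower ratios for all 9 genes, with Des still positive at 0.25.

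**Figure D3:**
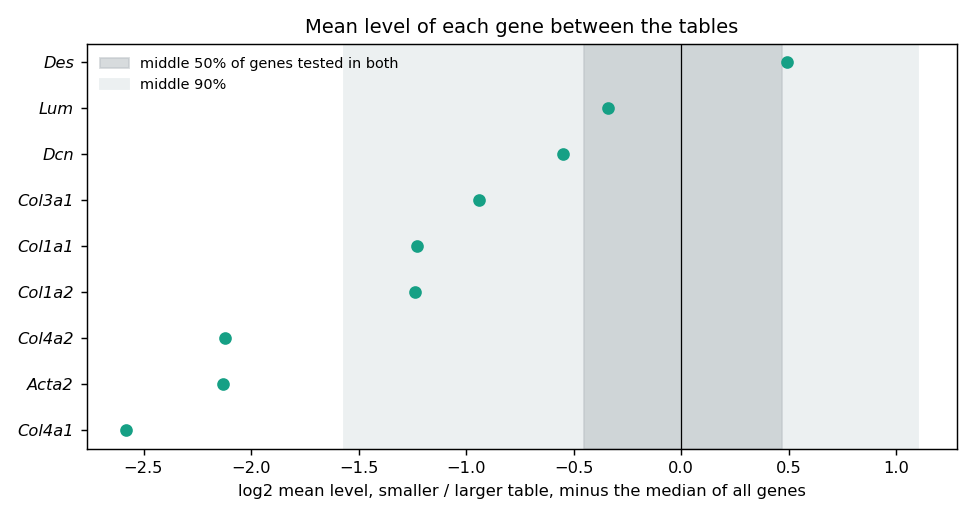
Log2 ratio of each gene's mean level in the smaller table over the larger, minus the median ratio of 11604 genes, with shaded ranges of those genes. Col4a1, Acta2 and Col4a2 fall below the middle 90% of genes, and Des is the only member with a positive ratio. Acta2 and Col1a1 had means too low in the smaller table to be among the 11604 genes.

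The related lists shifted unequally as well. All 7 tested basement membrane genes (such as the laminin, nidogen and perlecan genes) had a lower level in the smaller table than the median gene, with a median log2 ratio of -1.03. For enzymes and chaperones of collagen synthesis 11 of 11 were lower (median -0.83), for proteases of matrix and their inhibitors 5 of 5 (-0.98), for other collagens 6 of 7 (-0.82), for other proteoglycans and glycoproteins 6 of 6 (-0.76), and for endothelial markers 12 of 12 (-0.67). The 1 portal fibroblast marker tested in both was lower (-0.75), as were 10 of 14 genes of the TGF-beta and PDGF pathways (-0.50). Smooth muscle genes differed, with 3 of 8 lower and a median of 0.22, so the low ratio of Acta2 stands beside positive ratios of most genes on that list. Stellate markers were lower in 8 of 11, with a median of -0.31, macrophage markers in 8 of 12 (-0.24), hepatocyte markers in 6 of 10 (-0.15) and bile duct markers in 2 of 4 (-0.05). Since the preparation behind each table is not named, the ratio is not a measure of ER enrichment here.

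Another 18 stellate cell markers were read beside the members, and how much of the members' reads came from stellate cells was not tested. Of these markers, 16 had a row in both tables, and Lrat and Gfap matched none and were not analysed here. The most abundant were Ecm1 (an extracellular matrix protein of quiescent stellate cells), with means of 2278 and 1074 in the authors' deposited larger and smaller tables, and Rgs5 (a regulator of G protein signalling in pericytes and stellate cells), with 1054 and 861. Reln, Vim, Colec11 and Cygb were between 178 and 580.5 in both deposited tables, while Dpt, at 4.71 and 1.33, was close to undetected. Summed normalised reads of the 16 were 6429 and 5888 in the knockout libraries of the larger table, against 6238 and 6363 in the wild-type libraries. In the smaller table they were 5077 and 4059 in the knockout libraries, against 4382 and 4687 in the wild-type libraries, so the genotypes overlapped in the larger table and also in the smaller.

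None of those markers passed, with 0 of 13 tested in the larger and 0 of 11 in the smaller table called, and medians of -0.04 and -0.08. Rgs5 had the largest difference of the list in both, with 0.29 ± 0.10 (larger, p = 0.0043, adjusted p = 0.407) and 0.28 ± 0.13 (smaller, p = 0.0266, adjusted p = 0.995) in the authors' deposited tables. Ecm1 (chosen after its values were seen) had the other unadjusted p under 0.05 on the list, with -0.20 ± 0.09 (p = 0.0366) and -0.25 ± 0.12 (p = 0.0446) in the authors' deposited larger and smaller tables. These 2 stellate markers thus had estimates of opposite sign in each table.

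Among genes of the wider matrix programme and of neighbouring cell types, none was called, and calls were scarce over all genes. The 12 related lists counted here hold 172 genes and leave out the hepatocyte list, which held the 1 called gene. Of the 172, the larger table tested 130 and the smaller 98. None was called in either, where 0.296% and 0.266% of all tested genes were. An unadjusted p under 0.05 in the authors' deposited tables was found for 3 (2.31%) and 5 (5.1%) of them, against 3.62% and 4.11% of all tested genes. As a pool these counts are near the background and say nothing particular about the 12 lists. Single lists were uneven. The stellate markers alone had 2 of 13 (larger) and 2 of 11 (smaller), Rgs5 and Ecm1 each time, a higher share that rests on 2 genes. The macrophage markers had 2 of 12 in the smaller table and 0 in the larger. With the hepatocyte list included, the counts were 5 of 140 (3.57%, larger) and 9 of 108 (8.33%, smaller), and the share in the smaller was above its background. The hepatocyte list alone had 2 (larger) and 4 (smaller) of its 10 tested genes under 0.05. Among 11 and 7 tested other collagens, 10 and 4 were below 0, and the largest differences were those of Col6a1 (-0.08 ± 0.12, p = 0.51) and Col12a1 (0.16 ± 0.12, p = 0.2) in the authors' deposited larger and smaller tables. Basement membrane genes had 9 of 12 and 3 of 7 below 0, with Nid2, a nidogen, at 0.16 ± 0.12 in the authors' deposited larger table and Hspg2, perlecan, at -0.19 ± 0.14 in the authors' deposited smaller table. Summed normalised reads of the 13 basement membrane genes were 2105 and 2228 in the knockout libraries of the larger table, against 2342 and 2237 in the wild-type libraries, and 995 and 1008 in the knockout libraries of the smaller table, against 1064 and 1058 in the wild-type libraries. Both knockout sums were below both wild-type sums in each table, narrowly so in the larger. Other proteoglycans and glycoproteins had medians of -0.02 and -0.06, with Efemp1 at -0.13 ± 0.12 and Fbln5, a fibulin, at -0.10 ± 0.13 as the largest in the authors' deposited larger and smaller tables.

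Enzymes and chaperones that build collagen had 11 of 16 and 8 of 11 genes below 0, with medians of -0.08 and -0.07. The largest difference was that of Serpinh1, the collagen chaperone HSP47, at -0.22 ± 0.12 (p = 0.0655) in the authors' deposited larger table, and that of Plod3, a collagen lysyl hydroxylase, at -0.17 ± 0.14 (p = 0.217) in the authors' deposited smaller table. Summed normalised reads of the enzymes with recovered reads (16 and 17 genes) were 3755 and 3608 in the knockout libraries of the larger table, against 4377 and 3871 in the wild-type libraries. They were 4170.4 and 4033 in the knockout libraries of the smaller table, against 4399 and 4360.2 in the wild-type libraries. The knockout sums were thus again the lower ones in each table. Both sums leave out the most abundant enzyme gene, P4hb, with means of 27137 and 15050.3 in the larger and smaller table. The larger table's sum also leaves out Mia3 (4149) and Bmp1 (3046), which the smaller table's sum includes, so the 2 sums cover different genes. Of the 12 lists with recovered reads, these enzymes and the basement membrane genes were the 2 whose sums separated the genotypes in both tables. The sums of 3 lists were below in the larger table (with the proteases and inhibitors) and of 3 in the smaller (with the other proteoglycans and glycoproteins), and those of 1 were above in the smaller (the TGF-beta and PDGF pathways) and of 0 in the larger. By the same rule, 19.7% (larger) and 20.6% (smaller) of single tested genes with recovered reads were below, and 17.6% and 18.6% were above. Of the genes tested in both, 9.55% were below in both. No such share was computed for sums over other lists, and no test was made on these sums. The enzymes and the basement membrane genes are therefore not shown to stand out.

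Proteases of matrix and their inhibitors had medians of -0.03 and 0.00, and Mmp15, a membrane-bound metalloproteinase, had the largest difference in both, at -0.20 ± 0.11 (p = 0.0584) and -0.17 ± 0.14 (p = 0.215) in the authors' deposited larger and smaller tables. The signalling genes of the TGF-beta and PDGF pathways, which drive stellate cell activation, had medians of 0.01 and 0.07. Pdgfc, a PDGF ligand, had 0.18 ± 0.11 (p = 0.105) in the authors' deposited larger table, and Tgfbr1, a TGF-beta receptor, had 0.24 ± 0.14 (p = 0.0911) in the authors' deposited smaller table. Smooth muscle genes had medians of -0.01 and -0.05, with Tpm2, a tropomyosin, at -0.18 ± 0.12 (p = 0.151) and -0.28 ± 0.14 (p = 0.0415, adjusted p = 0.999) in the authors' deposited larger and smaller tables.

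**Figure D4:**
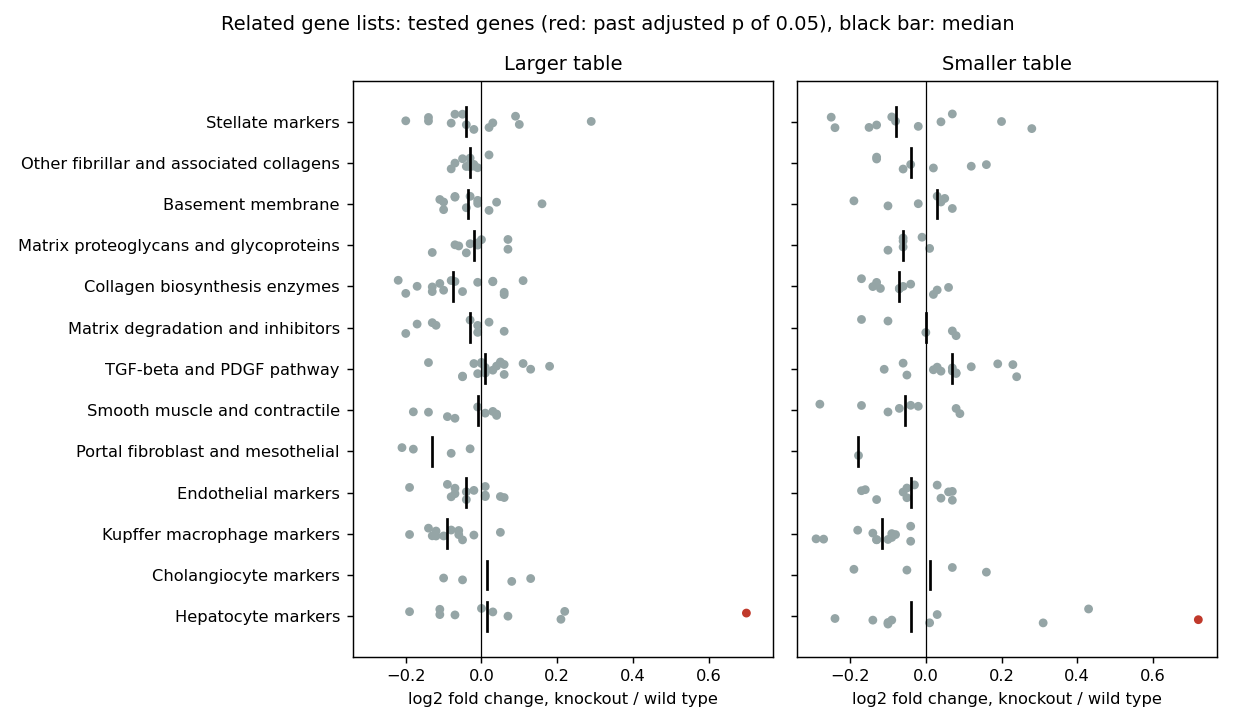
Authors' moderated log2 fold changes, knockout over wild type, of the tested genes of 13 related lists in the larger (left) and smaller (right) table, with the median as a black bar. The red point in each panel is Tat, a hepatocyte gene, and all other points are grey (not called).

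Markers of the neighbouring cell types were read beside the members. Endothelial markers, a source of type IV collagen, had 8 of 13 and 7 of 12 tested genes below 0 and medians of -0.04 in both tables. The largest were Pecam1 (-0.19 ± 0.12, authors' deposited larger table) and Eng (-0.17 ± 0.13, authors' deposited smaller table). Their summed normalised reads were 3942 and 4003 in the knockout libraries of the larger table, against 4394 and 3825 in the wild-type libraries, and 2046 and 2168 in the knockout libraries of the smaller table, against 2068 and 2476 in the wild-type libraries, overlapping in both. Kupffer cell and macrophage markers had 11 of 12 and 12 of 12 genes below 0, with medians of -0.09 and -0.11, and 0 called in either table. The largest were Csf1r (-0.19 ± 0.12, p = 0.102) and C1qc (-0.29 ± 0.13, p = 0.0273, adjusted p = 0.999) in the authors' deposited larger and smaller tables. Summed macrophage reads overlapped between genotypes, at 8753 and 8049 in the knockout libraries of the larger table, against 10846 and 7973 in the wild-type libraries, and 6434 and 5297 in the knockout libraries of the smaller table, against 6022 and 8247 in the wild-type libraries.

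Portal fibroblast and mesothelial markers had 4 of 4 and 1 of 1 tested genes below 0, led by Gas6 at -0.21 ± 0.12 (p = 0.0833) and -0.18 ± 0.14 (p = 0.209) in the authors' deposited larger and smaller tables. Bile duct markers had medians of 0.01 in both, with Sox9 at 0.13 ± 0.12 and Spp1, osteopontin, at -0.19 ± 0.12 in the authors' deposited larger and smaller tables. On the hepatocyte list, Tat, tyrosine aminotransferase, was the 1 called gene and rose by 0.70 ± 0.11 (adjusted p = 4.71e-07) and 0.72 ± 0.12 (adjusted p = 5.31e-06) in the authors' deposited larger and smaller tables. All 12 macrophage and 14 endothelial markers had a row in both tables. The part of these cell types in the Dcn and type IV collagen values was not tested.

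Timp1 (ENSMUSG00000001131; chromosome X, 20870166 to 20874735, plus strand) lies within Syn1 on the opposite strand in the annotation. Among the related genes that matched no row in either table, 4 of 6 also lie within another protein-coding gene, namely Aspn and Ogn within Cenpp, Timp3 within Syn3 and Timp4 within Syn2, while Lrat and Gfap do not. Of 917 protein-coding genes nested in this way, 5.78% (larger table) and 5.02% (smaller table) had a row, against 80.5% and 77.1% of 20838 other protein-coding genes.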

How the data were processed

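Total RNA of mouse liver or purified ER was sequenced with Illumina protocols, per the labels. STAR 2.3.0e, DESeq2 1.6.3 and mm10 appear in the submitters' processing notes with no role attached, and no source used here gives the annotation or the counting tool. For each gene the authors deposited a mean signal (counts divided by size factors, averaged over libraries), a log2 fold change and standard error, a score (Wald), a p-value and an adjusted p-value, per the file headers. The 10 genes and the 13 related lists were chosen with earlier results of these data known. The planned edgeR test needs counts per library, so the authors' own test stands in its place, with a threshold of 0.05 on the adjusted p. Genes to which the authors gave no adjusted p, all with low means, counted as not tested.

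From the deposited means, whole reads of the 4 libraries of each table were recovered (means of 1 to 2500, agreement to 0.5 of the last of 15 printed digits). Of 17802 and 15793 such genes, 17793 and 15781 had 1 solution, and recovered directions had the authors' sign in 100% of 6507 and 7132 genes with an absolute log2 fold change over 0.05. Recovered reads divided by size factors were fitted with limma 3.58.1 (R 4.3.3) on log2(value + 1) with a trend, added after the data were seen. Differences between tables were tested as z values, treating the tables as independent. The read recovery and this z test were tried on simulated data, and the limma fit was not. The simulated differences between tables had the spread that the deposited standard errors give. The z values of the data had an SD of only 0.535, so that simulation does not check the z test at the spread seen here. Intervals are at 95% and use the deposited standard errors; low read numbers limit Col1a1 and Acta2 most. Positions, exon lengths and sequences are from GENCODE M21 (GRCm38, the assembly that mm10 names), which named 23484 and 21080 of the identifiers. Python 3.11.15, pandas 2.3.3, numpy 2.4.6, scipy 1.17.1 and matplotlib 3.10.9 were used. From each related list, the text names every gene past the authors' test and the gene with the largest difference in each table. Alternatives covered the genes adjusted over, the centring, the scaling between tables and leaving out libraries.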

Additional observations from a re-analysis of the deposited data

How the results depend on the processing

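No member of the set was called in either table with no filter on the mean, with means of at least 100 only, with protein-coding genes only, by limma on the recovered reads, or by limma with any 1 library left out (0 to 0 called). In the last case a lone library is assumed to vary like the others. Leaving out each library, the sign of the limma estimate was kept throughout for 5 of 9 members in the larger table and 4 of 7 in the smaller. The members' median log2 ratio of recovered reads, -0.191 and -0.193 in the larger and smaller table, ran from -0.22 to -0.149 and from -0.231 to 0.093; the positive value came without the deeper knockout library, and the cause was not tested. Centring or a minimum mean of 100 left the median deposited fold change between -0.125 and -0.066. That minimum left only Dcn (-0.15) and Des (0.02) in the smaller table, so its value of -0.066 says little about the set. The difference between tables was called in 0 members under both alternatives. Scaling the tables by summed means moved the level ratio of Dcn to -0.78 and that of Des to 0.25. No paired analysis was possible because the libraries behind the tables carry no replicate numbers. Read depth limits Col1a1 and Acta2 in the smaller table, where neither was tested, and differences under about 0.4 on the moderated log2 scale could not be called for any member except Dcn in the larger table.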
